A study of Homo sapiens with 60 samples.

Results

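The set described here is 10 genes of the tubulin family: the alpha tubulins TUBA1A, TUBA1B, TUBA1C and TUBA4A and the beta tubulins TUBB, TUBB2A, TUBB2B, TUBB3, TUBB4B and TUBB6. They were chosen by name, as the rows of the count table whose Ensembl identifier maps to one of these symbols. All 10 were found among the 60675 rows of the table, and all 10 passed the filter on low counts that left 16978 genes to be tested. The cells were HT29, an established human colorectal adenocarcinoma line, exposed for 24 h to ethanol extracts of 4 herbs and 4 multi-herb formulas or to the vehicle alone, and read out by poly(A) RNA sequencing in 60 libraries of 25 groups. Each extract was given at 3 doses, the lower ones being dilutions by 5 and by 25 of the high one. Polygalae Radix was used at 380, 76 and 15.2 µg/mL and Aucklandiae Radix at 370, 74 and 14.8 µg/mL, with 2 libraries per dose. By the series' stated design, a high dose under 500 µg/mL is the IC20, the concentration that gives 20% inhibition. The formulas Guibi-tang and Saengmaek-san, the herbs Saposhnikoviae Radix and Menthae Herba (3 libraries per dose each), Soyo-san (2 libraries per dose) and Okbyeongpung-san (1 library per dose, so levels without a test) were used at 500, 100 and 20 µg/mL. The vehicle group has 3 libraries of DMSO-treated cells, labelled 0.1% DMSO for the samples and 2% in the series' design. Whether replicates were separate cultures is not stated, so each p-value reflects only how far libraries of a group scatter, possibly from technical sources alone.

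Alpha and beta tubulin pair into the heterodimer from which microtubules polymerise, the filaments that form the mitotic spindle and the tracks of intracellular transport. Newly made chains are held by prefoldin, folded by the CCT chaperonin and joined by the tubulin cofactors. Cells also control tubulin mRNA by how much free dimer they hold: when soluble tubulin rises, TTC5 binds the first residues of a nascent tubulin chain on the ribosome and, with SCAPER and the CCR4-NOT deadenylase, has the mRNA degraded. In dividing epithelial cells TUBA1B, TUBA1C, TUBB and TUBB4B are the usual isotypes, while TUBB3, TUBB2A, TUBB2B and TUBA1A are best known from neurons.

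The coding starts are shown because this autoregulation reads the first residues of the chain. Each line gives the first 30 coding bases of the GENCODE 29 transcript (GRCh38), 5′ to 3′ on the sense strand. Capitals mark the first 12 bases, which encode the stretch that is recognised.
TUBA1A, TUBA1B and TUBA1C: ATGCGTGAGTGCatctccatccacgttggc
TUBA4A: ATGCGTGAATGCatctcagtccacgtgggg
TUBB: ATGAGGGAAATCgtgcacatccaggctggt
TUBB2A: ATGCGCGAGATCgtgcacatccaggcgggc
TUBB2B: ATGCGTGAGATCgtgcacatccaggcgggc
TUBB3: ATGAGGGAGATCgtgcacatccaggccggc
TUBB4B: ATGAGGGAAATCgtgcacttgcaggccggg
TUBB6: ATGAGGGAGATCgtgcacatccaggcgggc
After the methionine every member encodes arginine and then glutamate. The alpha genes go on with cysteine and the beta genes with isoleucine. The capitals of TUBB and TUBB4B are the same, as are those of TUBB3 and TUBB6. TUBA1A and TUBA1B share all 30 bases printed.

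The genes lie at the following places on GRCh38 in the GENCODE 29 annotation, and all are annotated as protein coding. TUBA1B (ENSG00000123416) lies at chr12:49127782-49131397 on the minus strand, TUBA1A (ENSG00000167552) at chr12:49184796-49189324 on the minus strand and TUBA1C (ENSG00000167553) at chr12:49188736-49274603 on the plus strand. The last 2 overlap at their ends. TUBA4A (ENSG00000127824) lies at chr2:219249711-219278170 on the minus strand. TUBB (ENSG00000196230) lies at chr6:30720201-30725426 on the plus strand. TUBB2A (ENSG00000137267) lies at chr6:3153669-3157526 and TUBB2B (ENSG00000137285) at chr6:3224261-3231730, both on the minus strand. TUBB3 (ENSG00000258947) lies at chr16:89921392-89938761, TUBB4B (ENSG00000188229) at chr9:137241213-137243707 and TUBB6 (ENSG00000176014) at chr18:12307669-12344320, all on the plus strand. Within the families the coding sequences are close copies: TUBB2A and TUBB2B are identical at 98.2% of aligned bases, TUBA1B and TUBA1C at 97.25% and TUBA1A and TUBA1B at 97.19%. Of the 100-base windows of the TUBB2A transcript, 56.4% also occur in another gene's transcript, against 37.2% for TUBA1B, 18.3% for TUBA1A, 5.1% for TUBB and none for TUBB6. The authors' counting can divide reads between such copies, so the split among TUBA1A, TUBA1B and TUBA1C and that between TUBB2A and TUBB2B are uncertain to that extent.

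Library totals ran from 17079221 to 36796414 expected counts. The library labelled Saposhnikoviae Radix low replicate 2 has the lowest total and stands apart: its best correlation with a library of its group was 0.768, against at least 0.994 for the others. It was left out of the levels (59 libraries) and of the tests (56 libraries, also without Okbyeongpung-san). Levels are CPM, counts scaled to one common library total after TMM adjustment. Log2 fold changes, their standard errors (SE) and Benjamini-Hochberg adjusted p-values come from edgeR's quasi-likelihood test over all genes tested, and a gene is called, or said to have risen or fallen, at an adjusted p under 0.05. Library names carry a set number that Polygalae Radix shares with Aucklandiae Radix, Menthae Herba with Saposhnikoviae Radix, Saengmaek-san with Guibi-tang and Soyo-san with Okbyeongpung-san. The vehicle libraries have a prefix of their own, so a difference from the vehicle and a difference between sets cannot be told apart, while high against low dose of an extract lies within a set. The same 3 vehicle libraries serve in every comparison with the vehicle. Of the HT29 epithelial markers, EPCAM (385 to 576 CPM over the 59 libraries) and KRT8 were present throughout. The lowest of that list were CDX1 (0 to 1.19 CPM), CDX2 (0.996 to 5.15 CPM) and CEACAM5 (5.36 to 21.7 CPM).

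In vehicle-treated cells the tubulin pool was made of 4 abundant genes, 1 of middle level and 5 that were low. Per kilobase of the annotated transcript the mean level was 1245 CPM for TUBA1B, 669 for TUBB, 568 for TUBB4B, 220 for TUBA1C and 77.3 for TUBA4A. TUBB2A followed at 12.9 CPM per kilobase. TUBA1A at 2.27 and TUBB3 at 2.24 CPM per kilobase differed by less than the spread of the vehicle libraries, and TUBB6 at 0.882 and TUBB2B at 0.660 closed the order. The spacing depends on the length used. Per kilobase of all annotated exons of the gene, TUBA1B was at 567 CPM and TUBB at 532 CPM. TUBA1A at 1.27 and TUBB3 at 0.895 then lay further apart, and TUBB2B at 0.607 lay above TUBB6 at 0.442. In plain CPM TUBA1B held 70.9% of the alpha sum and TUBB 65.1% of the beta sum. Over all 59 libraries the highest level was 12.2 times the lowest for TUBB3, 4.58 times for TUBA1A, 3.30 for TUBB2B, 3.14 for TUBB2A, 2.62 for TUBB6, 2.21 for TUBA4A and 2.11 for TUBA1B. The same ratio was 1.63 for TUBB, 1.61 for TUBB4B and 1.48 for TUBA1C, so TUBB, TUBB4B and TUBA1C, all abundant, varied least.

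At the high dose of Polygalae Radix 7 of the 10 tubulin genes fell, the main alpha and the main beta isotype among them. As in all results here, a lower level in bulk RNA can be fewer cells with the transcript or less of it per cell, and these cannot be told apart. TUBA1B, the main alpha isotype, was at 1120 and 1142 CPM in the 2 libraries, against 1929, 1987 and 2160 CPM in the vehicle and 1825 and 1761 CPM at the low dose. Both high-dose libraries lay below every other library of the series used here. The log2 fold change was -0.83 (SE 0.045, adjusted p = 4.17e-19, edgeR) from the vehicle and -0.66 (SE 0.049, adjusted p = 9.82e-15, edgeR) from the low dose, or 0.563 and 0.633 of those levels. TUBB, the main beta isotype, was at 1199 and 1216 CPM, against 1806, 1696 and 1857 CPM in the vehicle and 1584 and 1651 CPM at the low dose. It fell by 0.55 on the log2 scale from the vehicle (SE 0.038, adjusted p = 6.02e-16, edgeR) and by 0.42 from the low dose (SE 0.041, adjusted p = 3.84e-11, edgeR). TUBA1A, a minor alpha gene here, was at 2.12 and 2.07 CPM, below the 4.79, 4.19 and 4.07 CPM of the vehicle and the 3.61 and 4.05 CPM of the low dose. That was a log2 fold change of -1.04 (SE 0.178, adjusted p = 7.08e-06, edgeR) from the vehicle and -0.86 (SE 0.200, adjusted p = 0.000744, edgeR) from the low dose.

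Against the vehicle 7 of the 10 members were lower at the high dose of Polygalae Radix and none was higher, where 36.5% of all genes tested were called, 19.6% lower and 16.8% higher. All 10 log2 fold changes were negative, with a median of -0.55 against -0.01 over all genes. The signs alone do not set this extract apart, since all 10 were also negative with Saengmaek-san at the high dose, with a median of -0.11. The other called members were TUBA4A (-0.55), TUBB4B (-0.42), TUBB2A (-0.39) and TUBA1C (-0.34), while TUBB2B, TUBB3 and TUBB6 missed the threshold at -0.55, -0.24 and -0.55 (adjusted p = 0.131, 0.207 and 0.0817). Against its own low dose 6 members were lower and none higher, where 29.4% of all genes were called. TUBA1C was not among them, at -0.10 (adjusted p = 0.235). TUBB2A, at 17.4 and 14.0 CPM, lost its calls without high replicate 3: its log2 fold change from the vehicle was then -0.22 (adjusted p = 0.160) and from the low dose -0.15 (adjusted p = 0.422). The call against the low dose was also lost without either low-dose library (adjusted p = 0.0824 and 0.0829). Leaving out 1 library at a time gave 4 to 6 members called against the low dose, so TUBB2A was not the only call that could be lost. In the same cells the HT29 epithelial markers were low too: their sum was 7657 to 8534 CPM, against 12964 to 15578.5 CPM in the vehicle, and 9 of the 11 were called lower. Whether that shift had a part in the tubulin result was not tested. With the library that stands apart put back in the fit, 3 members were called against the vehicle (TUBA1A, TUBB and TUBB2A) and 2 against the low dose (TUBA1A and TUBB), and TUBA1B was not (-0.83, adjusted p = 0.168, against the vehicle).

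**Figure D1:**
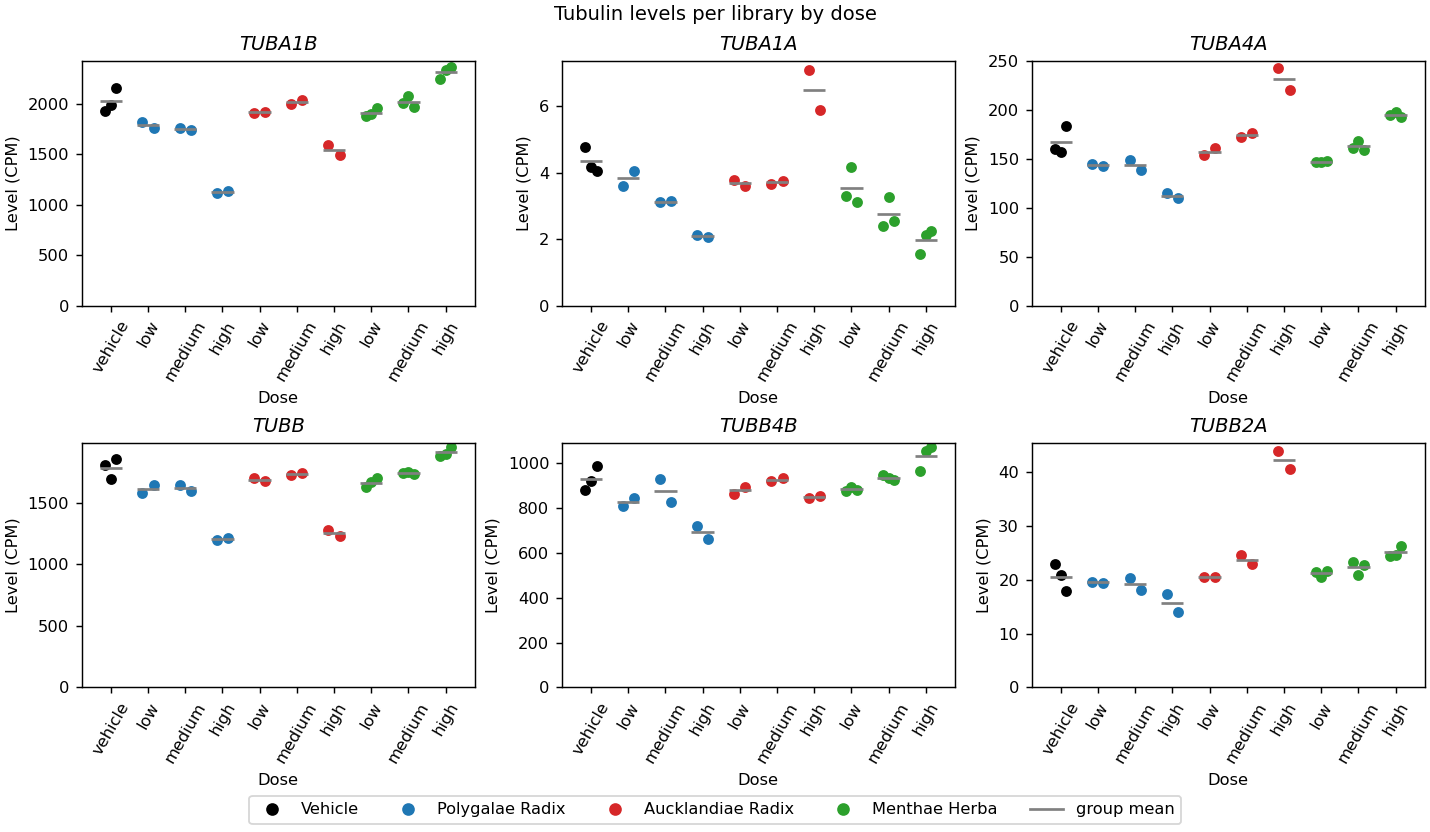
Levels in CPM (y axes, starting at 0) of TUBA1B, TUBA1A, TUBA4A, TUBB, TUBB4B and TUBB2A in the vehicle and at the low, medium and high dose of Polygalae Radix, Aucklandiae Radix and Menthae Herba; each point is 1 library and each grey bar the group mean. TUBB is low at the high dose of both Polygalae Radix (1199 and 1216 CPM) and Aucklandiae Radix (1235 and 1283 CPM), while TUBA1A, TUBA4A and TUBB2A go down in the first and up in the second.

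With Aucklandiae Radix at the high dose 4 low-level isotypes and TUBA4A rose, while TUBA1B and TUBB, the most abundant of each family, fell. TUBB3, the class III beta tubulin, was at 30.0 and 32.2 CPM, against 4.01, 3.48 and 4.40 CPM in the vehicle, 3.29 and 3.51 CPM at the low dose and 4.82 and 4.99 CPM at the medium dose. No other library of the 59 exceeded 4.99 CPM, and the lowest had 2.63. The log2 fold change was 2.97 from the vehicle (SE 0.111, adjusted p = 5.73e-26, edgeR), a ratio of 7.84, and 3.19 from the low dose (SE 0.133, adjusted p = 4.13e-24, edgeR), a ratio of 9.10. TUBB2A was at 43.9 and 40.6 CPM, against 17.9 to 22.8 CPM in the vehicle and 20.6 and 20.5 CPM at the low dose, and no other group's library was above 26.6 CPM. It rose by 1.04 on the log2 scale in both comparisons (SE 0.081 and 0.091, adjusted p = 5.3e-15 and 2.64e-13, edgeR). TUBA1A, at 7.09 and 5.90 CPM, was above the vehicle's 4.07 to 4.79 CPM and the low dose's 3.59 and 3.78 CPM. Its log2 fold changes were 0.58 (SE 0.146, adjusted p = 0.000637, edgeR) and 0.82 (SE 0.167, adjusted p = 4.57e-05, edgeR).

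**Figure D2:**
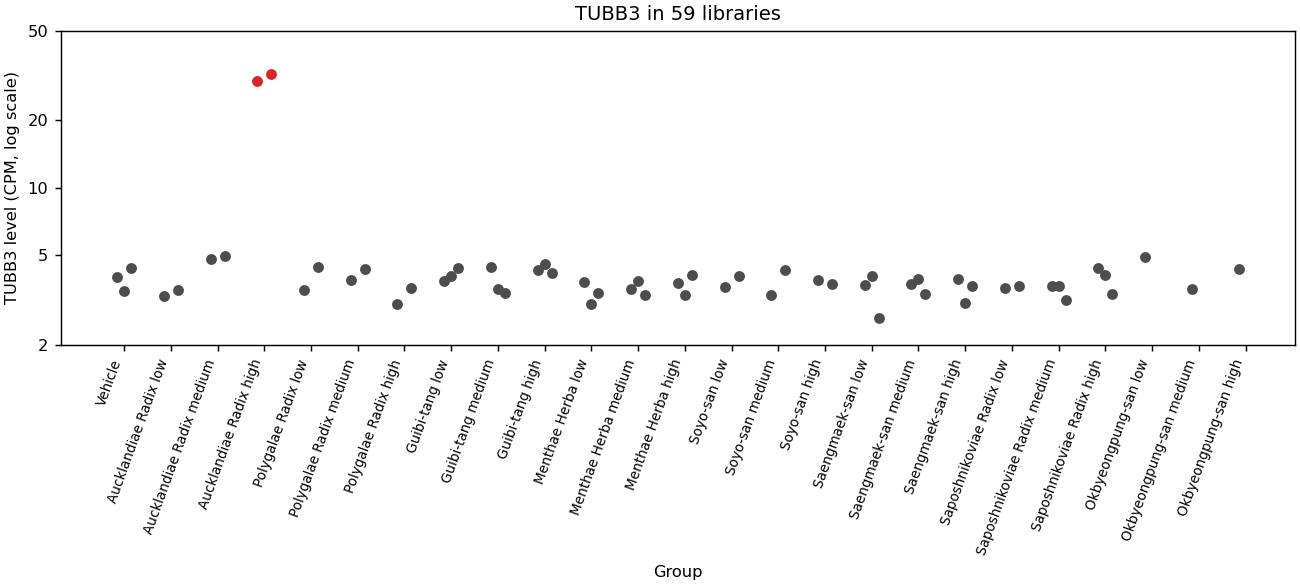
TUBB3 level in CPM (log y axis) in each of the 59 libraries, by group (x axis), each point 1 library. The 2 libraries of Aucklandiae Radix high (red, 30.0 and 32.2 CPM) lie apart from all others, which run from 2.63 to 4.99 CPM.

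TUBB and TUBA1B moved the other way in the same libraries. TUBB was at 1283 and 1235 CPM, below the 1696 to 1857 CPM of the vehicle and the 1703 and 1679 CPM of the low dose, with log2 fold changes of -0.50 (SE 0.038, adjusted p = 1.92e-15, edgeR) and -0.43 (SE 0.041, adjusted p = 2.68e-12, edgeR). TUBA1B was at 1591 and 1496 CPM, below the vehicle's 1929 to 2160 and the low dose's 1913 and 1924 CPM. Its log2 fold changes were -0.39 (SE 0.045, adjusted p = 3.76e-10, edgeR) and -0.32 (SE 0.049, adjusted p = 3.01e-07, edgeR). In all, 5 members were higher and 3 lower than in the vehicle, where 62% of all genes were called, 31% in each direction. Against the low dose 6 were higher and 2 lower, where 58.7% of all genes were called. With so many genes changed, the share of members called is no result about tubulins, and what can be read is each gene's size and direction. With the library that stands apart in the fit 4 members were called in each comparison, TUBA1A, TUBB, TUBB2A and TUBB3, and TUBA1B was not (adjusted p = 0.424 against the vehicle).

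TUBA4A rose by 0.48 from the vehicle and by 0.56 from the low dose, to 221 and 244 CPM from 157 to 184 and from 154 and 161 CPM. TUBB2B, the close copy of TUBB2A, rose by 0.67 and 0.87, to 1.94 and 2.21 CPM. The second of these calls hung on single libraries: without Aucklandiae Radix high replicate 2 its adjusted p was 0.0507, and without low replicate 2 it was 0.0642. TUBB4B was lower by 0.13 than in the vehicle (adjusted p = 0.0296), not called without high replicate 3 (adjusted p = 0.0698) and at -0.06 from the low dose (adjusted p = 0.426). TUBA1C was called only against the low dose, at 0.29 (adjusted p = 0.000112), and TUBB6 in neither comparison. Summed with their copies, TUBB2A and TUBB2B together rose as well (log2 ratio 1.02 from the vehicle and 1.03 from the low dose), whereas the sum of TUBA1A, TUBA1B and TUBA1C was lower (-0.25 and -0.14). TUBA1B and TUBA1C hold nearly all reads of that sum, so it says nothing about TUBA1A, for which any effect of how reads were divided among the copies was not tested.

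Of 12 genes fixed as neuron markers, 10 were too low to be tested, and STMN2 and NEFM were at 0 in all 59 libraries. Their sum was 36.0 to 38.7 CPM in Aucklandiae Radix high and 4.54 to 5.71 CPM in the vehicle, nearly all of it TUBB3 and MAP2. MAP2, which binds microtubules in dendrites, rose to 6.03 CPM from 1.04 CPM at the low dose (log2 fold change 2.53, SE 0.20, adjusted p = 1.32e-14, edgeR). The share of mitochondrial transcripts was 6.19% and 6.52% in these libraries, against 9.46% to 12.3% in the vehicle. Its part in the tubulin values was not tested.

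Polygalae Radix and Aucklandiae Radix were sequenced in the same set and could be compared directly at the high dose, 380 against 370 µg/mL, the doses being near but not equal. All 8 members called were lower with Polygalae Radix, where 58.3% of all genes were called (29.4% lower). The differences on the log2 scale were -3.21 for TUBB3 (SE 0.136, adjusted p = 6.94e-24), -1.62 for TUBA1A (SE 0.185, adjusted p = 3.68e-10), -1.42 for TUBB2A, -1.22 for TUBB2B, -1.03 for TUBA4A, -0.46 for TUBA1C, -0.44 for TUBA1B and -0.29 for TUBB4B (edgeR). TUBB and TUBB6 were not called. TUBB thus stood at 1199 and 1216 CPM in the first extract and 1283 and 1235 CPM in the second, a difference of -0.05 with a 95% interval of -0.13 to 0.03. The difference between the extracts' own high-minus-low changes, tested after the values had been seen, was 0.01 for TUBB (SE 0.058, adjusted p = 0.891, edgeR) and -0.34 for TUBA1B (SE 0.069, adjusted p = 5.37e-05, edgeR), where 46.6% of all genes were called.

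**Figure D3:**
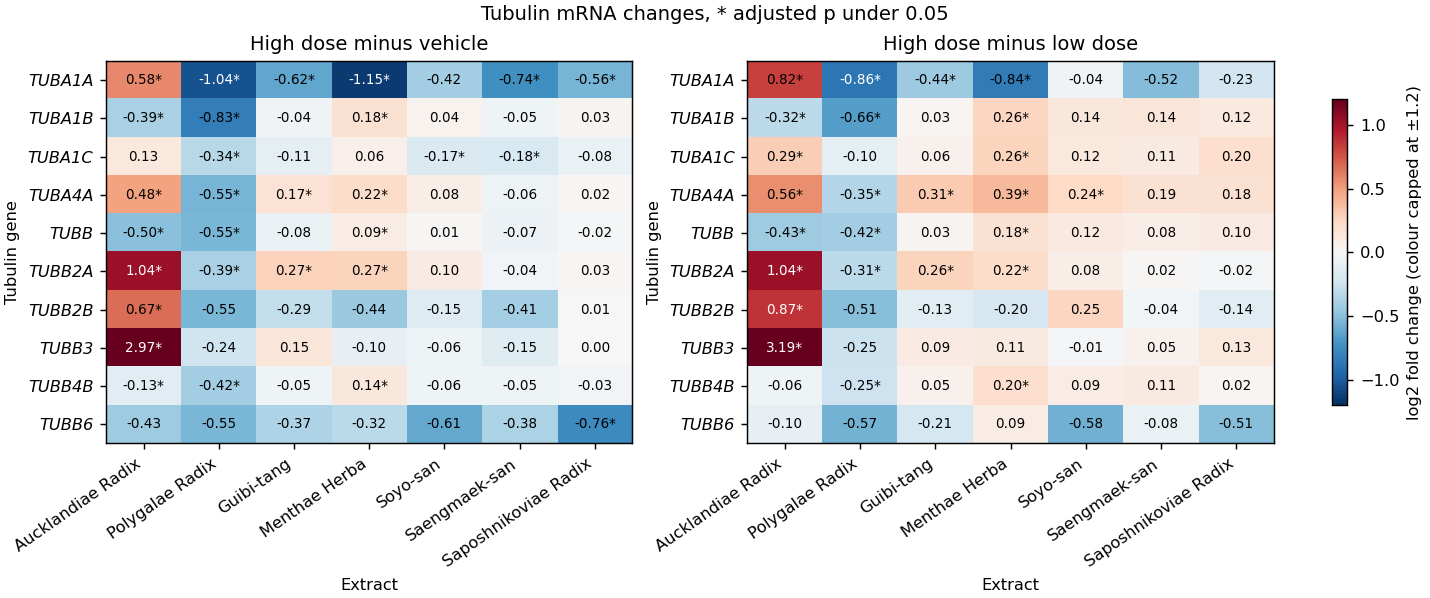
Log2 fold changes of the 10 members at the high dose of the 7 replicated extracts. Polygalae Radix is negative for all members against the vehicle, as Saengmaek-san is with smaller values (medians -0.55 and -0.11), while TUBB3 in Aucklandiae Radix has the largest value, 2.97 against the vehicle and 3.19 against the low dose.

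Menthae Herba, the mint herb, gave the highest tubulin level of the series. TUBA1B was at 2249, 2334 and 2364 CPM, above the 1929 to 2160 CPM of the vehicle and the 1880 to 1958 CPM of its low dose. The log2 fold changes were 0.18 (SE 0.040, adjusted p = 0.000361, edgeR) and 0.26 (SE 0.040, adjusted p = 3.06e-06, edgeR). TUBB was at 1887, 1901 and 1953 CPM, against 1627, 1668 and 1704 CPM at the low dose, where it rose by 0.18 (SE 0.033, adjusted p = 5.26e-05, edgeR). From the vehicle it was higher by 0.09 (adjusted p = 0.0358), a call that left the threshold without vehicle replicate 2 (adjusted p = 0.224) and without any 1 of the high-dose libraries (adjusted p = 0.0519 to 0.116). TUBA1A went the other way, to 1.55, 2.14 and 2.24 CPM from 3.30, 4.18 and 3.11 CPM at the low dose, with log2 fold changes of -0.84 (SE 0.160, adjusted p = 8.98e-05, edgeR) from there and -1.15 (SE 0.152, adjusted p = 1.45e-07, edgeR) from the vehicle. The sum with TUBA1B and TUBA1C, which hold nearly all its reads, went up (0.28 and 0.16).

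Of the 10 members 6 were higher and 1 lower than at the low dose of Menthae Herba, where 23.5% of all genes were called, 12% higher and 11.6% lower. The others called higher were TUBA4A (0.39), TUBA1C (0.26), TUBB2A (0.22) and TUBB4B (0.20). Against the vehicle 5 were higher and 1 lower, where 28.2% of all genes were called. With the library that stands apart in the fit 2 members (TUBA1A and TUBB) were called against the low dose and 1 (TUBA1A) against the vehicle. The TUBB2A call against the low dose is the least firm, at 24.4, 24.5 and 26.2 CPM against 20.5 to 21.7 CPM: without high replicate 3 its adjusted p was 0.120, and without low replicate 2 it was 0.108. At the same dose Saposhnikoviae Radix, of the same set, was lower for 5 of these members: Menthae Herba exceeded it by 0.15 for TUBA1B, 0.19 for TUBA4A, 0.11 for TUBB, 0.24 for TUBB2A and 0.17 for TUBB4B, and was below it by 0.58 for TUBA1A. Of all genes 16.1% were called there. Without Menthae Herba high replicate 3 the count dropped from 6 members to 3, and with the library that stands apart in the fit none was called.

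Between high and low dose the replicated formulas and Saposhnikoviae Radix had at most 3 of the 10 members called. Guibi-tang at the high dose had 2 members higher and 1 lower than at its low dose, where 17.9% of all genes were called. TUBA4A rose by 0.31 (180.5 to 192 CPM against 143 to 160 CPM), TUBB2A rose by 0.26 (23.7, 26.6 and 23.9 CPM against 21.7, 19.8 and 20.5 CPM, SE 0.078, adjusted p = 0.0138, edgeR) and TUBA1A fell by 0.44 (SE 0.154, adjusted p = 0.04, edgeR). Without high replicate 2 or low replicate 2 only 1 member stayed past the threshold, and the TUBA1A call was lost without any 1 of 5 of the 6 libraries (adjusted p = 0.0522 to 0.162). Against the vehicle the same 3 genes were called, where 29.4% of all genes were, and without high replicate 2 only 1 of the 3 calls was left. Soyo-san had 1 member higher than at its low dose, TUBA4A at 0.24 (adjusted p = 0.0283), where 2.49% of all genes were called. Without any 1 of the 4 libraries it was not called (adjusted p = 0.0692 to 0.233). Saengmaek-san and Saposhnikoviae Radix had no member called between high and low dose by edgeR, where 0.854% and 0.289% of all genes were. At an unadjusted p under 0.05 the counts were 6 members (5 higher) and 4 members (all higher). DESeq2 called 2 members in Saengmaek-san, TUBA1B at 0.14 (adjusted p = 0.0351) and TUBA4A at 0.18 (adjusted p = 0.0297), and none in Saposhnikoviae Radix.

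Against the vehicle Saengmaek-san, Saposhnikoviae Radix and Soyo-san had a few members lower and none higher by edgeR, and none was higher at an unadjusted p under 0.05 either. Saengmaek-san had 2 (TUBA1A at -0.74 and TUBA1C at -0.18), where 12% of all genes were called, Saposhnikoviae Radix 2 (TUBA1A at -0.56 and TUBB6 at -0.76), where 10.2% were, and Soyo-san 1 (TUBA1C at -0.17), where 17.7% were. Directly compared, Saengmaek-san was below Guibi-tang for TUBA4A by 0.23 and for TUBB2A by 0.31, where 12.7% of all genes were called. Okbyeongpung-san, with 1 library per dose and no test, had TUBA1B at 1840, 2018 and 2038 CPM and TUBB at 1619, 1690 and 1696 CPM from the low to the high dose. Its TUBB3 levels, 4.92, 3.55 and 4.34 CPM, and its TUBA1A levels, 4.26, 3.10 and 2.86 CPM, lay within the range of the other groups.

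TUBA1A was lower than in the vehicle at the high dose of 5 of the 7 replicated extracts and higher in 1, more often than any other member. Of all gene and extract pairs at the high dose 28% were called against the same vehicle libraries. Within sets, high against low dose, TUBA1A was lower in 3 of the 7 extracts and higher in 1. At the medium dose TUBA1A was lower than in the vehicle in 4 of 7, from -0.65 with Menthae Herba to -0.42 with Saengmaek-san, and at the low dose in none. TUBA1C was lower than in the vehicle in 6 of the 7 low-dose groups, with log2 fold changes from -0.29 to -0.17 among all 7. Over members and extracts, 17 of 70 low-dose comparisons were called, all lower, and 11 of 70 at the medium dose, all lower. None was called higher by edgeR, and at an unadjusted p under 0.05 none was higher at the low dose and 3 were at the medium dose. That is 24.3% and 15.7%, against 9.96% and 9.79% of all gene and extract pairs (5.43% and 5.17% called lower). These calls hang on the shared vehicle: without vehicle replicate 3, which has the highest TUBA1B, TUBA1C, TUBB and TUBB4B levels of the 3, 6 were left at the low dose and 4 at the medium dose. TUBB3, TUBB2A, TUBB2B and TUBB6 were not called at the medium or low dose of any extract. With Aucklandiae Radix the medium dose had TUBB3 at 4.82 and 4.99 CPM, above all vehicle libraries but not called.

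**Figure D4:**
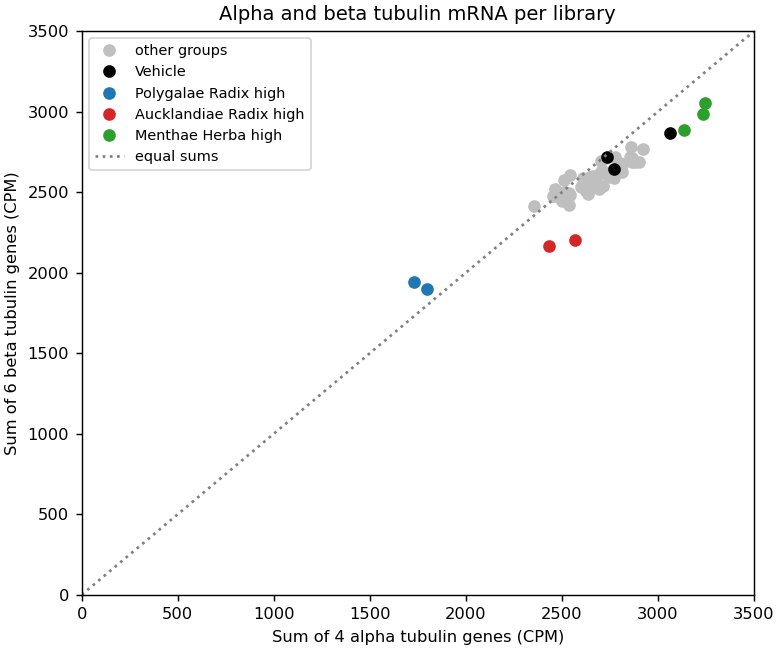
Sum of the 4 alpha genes (x axis, CPM) against the sum of the 6 beta genes (y axis, CPM), each point 1 of 59 libraries and the dotted line equal sums. Polygalae Radix high (blue) lies lowest on both axes and Menthae Herba high (green) highest, and Aucklandiae Radix high (red) lies below the line with ratios of 1.12 and 1.17.

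Summed over the 10 genes, tubulin mRNA took 3668 and 3699 CPM at the high dose of Polygalae Radix, 4773 and 4596 CPM with Aucklandiae Radix, 6020.5 to 6301 CPM with Menthae Herba and 5419 to 5935 CPM in the vehicle. The ratio of the alpha to the beta sum stayed between 0.890 and 1.17 over the 59 libraries. Polygalae Radix high held both the lowest ratio and 0.948, below the vehicle's 1.01 to 1.07, and Aucklandiae Radix high the highest, 1.17 and 1.12. Within the alpha sum TUBA1B was 70.9% in the vehicle, 64.1% in Polygalae Radix high and 61.7% in Aucklandiae Radix high. TUBA1C took 23.1%, 29.4% and 28.8% of it. Within the beta sum TUBB3 was 0.144% in the vehicle and 1.43% in Aucklandiae Radix high, so that even after its rise it was a minor part of the beta tubulin mRNA. TUBB fell from 65.1% to 57.7% of the beta sum there, and TUBB4B went from 33.9% to 38.8%.

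Genes that fold tubulin were read against the share of all genes called between high and low dose: 29.4% with Polygalae Radix (13.3% higher, 16% lower), 23.5% with Menthae Herba (12% higher, 11.6% lower) and 58.7% with Aucklandiae Radix (29.6% higher, 29.2% lower). The 8 subunits of CCT, the chaperonin that folds tubulin and actin, were all lower at the high than at the low dose of Polygalae Radix, with a median of -0.54. The 4 largest were CCT7 (-0.71), CCT8 (-0.59), CCT3 (-0.57) and CCT2 (-0.57). With Menthae Herba all 8 were higher, with a median of 0.23, led by TCP1 (0.26), CCT5 (0.24), CCT4 (0.24) and CCT6A (0.23). With Aucklandiae Radix 2 were higher (CCT2 at 0.24 and CCT5 at 0.20) and 1 lower (CCT7 at -0.19). The prefoldin list of 7 genes also holds PDCL3, which is not a subunit of prefoldin, the complex that hands chains to CCT. With Aucklandiae Radix 6 of the 7 were higher (median 0.32), led by PFDN2 (0.75) and PFDN4 (0.68). With Menthae Herba 2 were higher (PFDN2 at 0.39 and VBP1 at 0.18), and with Polygalae Radix 2 were lower (PDCL3 at -0.28 and VBP1 at -0.27). Of 6 tubulin cofactor genes tested, 2 were higher and 2 lower with Aucklandiae Radix: TBCA (0.55) and TBCEL (0.55) against TBCD (-0.89) and ARL2 (-0.44), the last being the GTPase that works with TBCD. These 4 of 6 are near the 58.7% of all genes, so the count is no result about cofactors. With Polygalae Radix TBCD (-0.37) and TBCB (-0.23) were lower. The medians over all genes in these 3 comparisons lay between -0.02 and -0.01.

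The autoregulation list of 14 genes holds TTC5, SCAPER and CCR4-NOT subunits. It also holds PELO, HBS1L and ABCE1, which act in ribosome rescue and are not part of the autoregulation as described above. The list had 2 genes higher and 1 lower than at the low dose of Polygalae Radix, where 29.4% of all genes were called. TTC5 itself was higher at 11.6 against 9.75 CPM (log2 fold change 0.26, SE 0.087, adjusted p = 0.0239, edgeR), and by 0.28 against the vehicle (adjusted p = 0.00409). PELO, a ribosome rescue factor, was at 0.29 and CNOT1, the CCR4-NOT scaffold, at -0.19. With Aucklandiae Radix, where 58.7% of all genes were called, 6 were higher and 5 lower, led by PELO (0.59), CNOT6L (-0.51), CNOT6 (-0.37) and CNOT1 (-0.34), and TTC5 was not called at 9.34 against 10.5 CPM. TTC5 was called in no other high against low comparison. Of the 17 tubulin modifying enzymes 4 were higher and 8 lower with Aucklandiae Radix, again beside 58.7% of all genes, among them VASH2 (-3.12), a detyrosinase, TTLL7 (1.88), a polyglutamylase, MATCAP1 (-1.10) and AGBL5 (-0.98). With Polygalae Radix 3 of the 17 were higher and 3 lower, beside 29.4% of all genes called, so the count is no result about these enzymes. HDAC6, the tubulin deacetylase, was among the lower ones, at -0.73.

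Other microtubule genes are given beside the same shares of all genes. Among 35 microtubule-associated and severing proteins 16 were higher and 10 lower at the high than at the low dose of Aucklandiae Radix (all genes 29.6% and 29.2%), led by NAV3 (5.75, from 0.199 to 10.8 CPM), MAP2 (2.53), NAV2 (2.09) and MAPRE3 (1.74), a plus-end binding protein. With Polygalae Radix 5 were higher and 15 lower (all genes 13.3% and 16%), led by MAP2 (-1.30), MAPT (-0.95), MAP4 (-0.89) and CKAP5 (-0.81). MAP2 is near the floor, at a mean of 0.908 CPM in the vehicle and a lowest level of 0.369 CPM over the 59 libraries. The gamma-tubulin ring complex, from which microtubules start, had 8 of 10 genes lower with Aucklandiae Radix (median -0.34), where 29.2% of all genes were lower, led by MZT1 (-0.66) and NEDD1 (-0.51). All 25 genes of the mitosis list were lower there too (median -0.95), with MKI67 at -1.63, TOP2A at -1.60, NUSAP1 at -1.56 and KIF20A at -1.55. With Polygalae Radix 15 of the 25 were lower (median -0.31), with TOP2A at -1.13 and CENPE at -1.10, and with Menthae Herba 11 were higher, led by CDC20 (0.26) and MAD2L1 (0.25). Since TUBA1B and TUBB fell in both extracts where mitosis genes fell, the 2 sets of values are given side by side, and no link between them was tested.

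Actin and its partners, the other main cytoskeleton, fell with Polygalae Radix in 12 of 18 genes (median -0.37), where 16% of all genes were lower, led by MYL9 (-1.65), MYH9 (-1.39), ACTN1 (-0.64) and TAGLN2 (-0.59). The list of 18 also holds VIM, which encodes an intermediate filament protein. With Aucklandiae Radix 11 rose and 2 fell (median 0.28), where 29.6% and 29.2% of all genes did, led by ACTG1 (1.16), ACTN4 (0.75), ACTB (0.70) and TMSB10 (0.67). Other tubulin genes had 7 of 12 tested. With Aucklandiae Radix TUBB1 (-1.07), TUBE1 (-0.59) and TUBG1 (-0.18) were lower and TUBG2 (0.46) was higher than at the low dose. The share of the 7 called is near the 58.7% of all genes, so the count is no result about these genes. None of the 7 was called with Polygalae Radix, where 29.4% of all genes were. The 50 annotated tubulin pseudogene rows summed to 11.8 CPM in the vehicle.

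**Figure D5:**
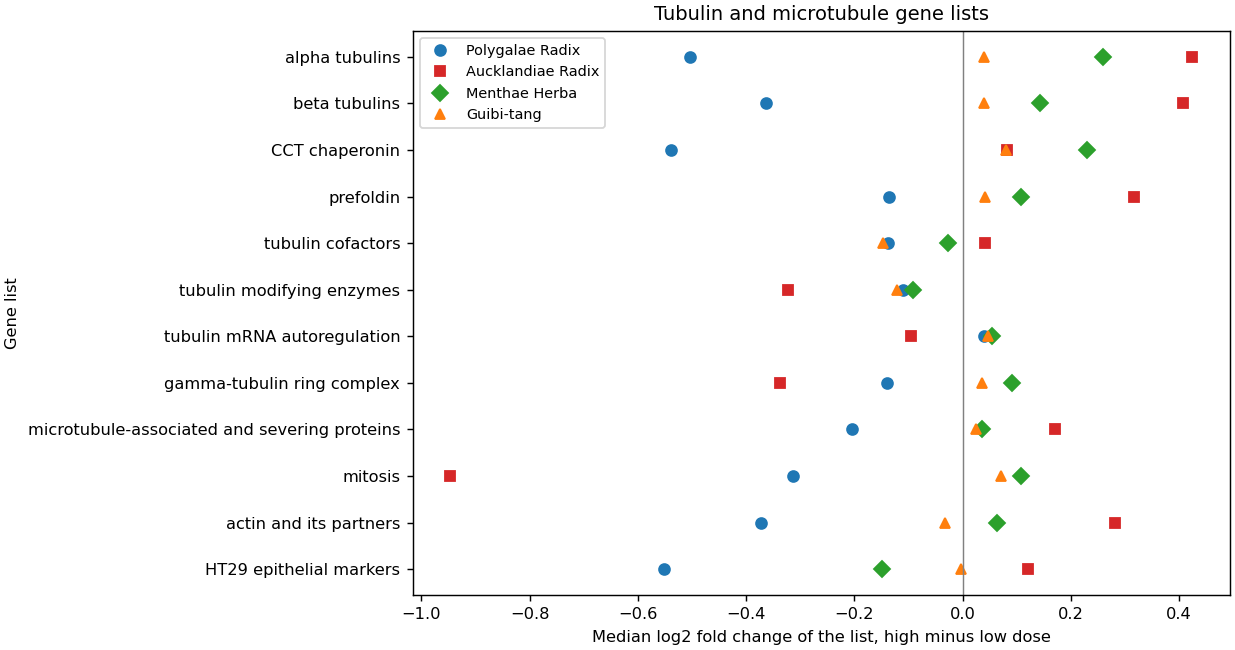
Median log2 fold change, high minus low dose (x axis), of the members and of each pathway list (y axis) in Polygalae Radix, Aucklandiae Radix, Menthae Herba and Guibi-tang. CCT lies at -0.54 with Polygalae Radix and 0.23 with Menthae Herba, and the mitosis list at -0.95 with Aucklandiae Radix.

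Across the 59 libraries the genes whose levels ran most like those of the abundant members were taken from 10575 genes with a mean of at least 5 CPM, by Pearson's r of log2(CPM + 1). The libraries share vehicle, sets and depth, so these are descriptions. TUBA1B ran most like HSP90AB1 (r = 0.956), VARS1 (0.952) and GPI (0.945). TUBB ran most like SSRP1 (0.941), TAGLN2 (0.937) and CS (0.936). TUBB4B ran most like GPS1 (0.902), RUVBL2 (0.901) and TUFM (0.897), and TUBA1C most like CSNK2B (0.894), RAB5C (0.870) and PFN1 (0.858).

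An antisense gene overlaps the whole of TUBA1B. TUBA1B-AS1 (ENSG00000258017, chr12:49127782-49147869, plus strand), singled out after its values were seen, ranged from 0 to 160 CPM between libraries, with 160, 0.395 and 96.6 CPM in the 3 vehicle libraries. It reached 8.29% of the TUBA1B level. The strand setting of the counting is not given in the sources used here, so reads of the pair cannot be told apart. With both genes summed the TUBA1B changes were -0.89 from the vehicle and -0.70 from the low dose with Polygalae Radix, and -0.43 and -0.33 with Aucklandiae Radix. TUBB3 shares 89% of its 100-base windows with other transcripts, mainly those of a readthrough gene (ENSG00000198211) that was at 0 CPM in Aucklandiae Radix high and 0.102 CPM in the vehicle.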

How the data were processed

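The measure was poly(A) mRNA abundance in HT29 cells, in 60 libraries made with a directional kit and read as paired ends, per the labels' protocols. The authors deposited expected counts per gene, and per the submitters' processing notes the tools were RSEM 1.3.3, STAR 2.7.3a, Trim Galore 0.6.5 and FastQC 0.11.9, with hg38 (GRCh38) as the build. Strandedness of the counting and the gene models' release were not given in the sources used here. Not whole were 10% of the deposited values, and all were rounded to whole counts. Symbols came from a gene name table (57043 of 60675 rows matched), and positions and transcripts from GENCODE 29.

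The test, run in R 4.3.3 with edgeR 4.0.16, used filterByExpr by group, TMM factors, 1 coefficient for each of 22 groups and two-sided quasi-likelihood F-tests on 56 libraries (34 residual degrees of freedom), with Benjamini-Hochberg adjustment over 16978 genes and a threshold of 0.05. The standard error is the log2 fold change divided by the square root of F, and intervals are 1.96 standard errors to each side. CPM used TMM totals of 59 libraries. Comparisons were high, medium and low dose against vehicle, high against low, and pairs of extracts of a set. The members and lists were chosen with earlier results of these data known. Full values are given for members with a called log2 fold change of at least 1 in size at the high dose and for TUBA1B and TUBB, and up to 4 called genes of largest change are named per list, plus TTC5. Alternatives were the library left out put back, RLE size factors, DESeq2 1.42.0, no filter, replicate number as a block, sums of close copies and leaving out each library. Depth was 17079221 to 36796414 counts per library, and the fit was tested on simulated data. TBCE had no matched row, so 6 of 7 cofactor genes were used. The wortmannin control named in the series' design was not analysed here.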

Additional observations from a re-analysis of the deposited data

Results flagged for a closer look

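For 3 members the high-minus-low change was called lower in 1 of the 2 herbs of one set and higher in the other. A test of the difference between the changes was added after the data were seen. It shows that the changes differ and does not test that their signs are opposite. The high-minus-low change of Polygalae Radix less that of Aucklandiae Radix was -1.68 on the log2 scale for TUBA1A (SE 0.260, adjusted p = 6.38e-07, edgeR), with -0.86 in the first and 0.82 in the second. For TUBB2A it was -1.35 (SE 0.138, adjusted p = 3.82e-11, edgeR), from -0.31 and 1.04, the first of which was -0.15 (adjusted p = 0.422, edgeR) without Polygalae Radix high replicate 3 and missed the threshold without either low-dose library (adjusted p = 0.0824 and 0.0829). For TUBA4A it was -0.90 (SE 0.090, adjusted p = 2.16e-11, edgeR), from -0.35 and 0.56. Of all genes 46.6% were called in this test. For these genes both libraries of each high-dose group lay on their side of the low-dose libraries. With 2 libraries against 2 that can come from scatter, and the share of all genes separated in this way was not counted. TUBA1A shares 18.3% of its 100-base windows with its close copies, and the part of read division in its values was not tested.

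The library labelled Saposhnikoviae Radix low replicate 2, which enters the tests only in the alternative fit of 57 libraries, held 4 members above every vehicle library. TUBB6 was at 33.7 CPM (456 reads) against 1.70 to 1.94 CPM in the vehicle, TUBA4A at 455 CPM against 157 to 182, TUBB4B at 1680 CPM against 871 to 977, and TUBA1A at 5.54 CPM against 4.02 to 4.73, all scaled over the 60 libraries. TUBA1B, at 142 CPM, and TUBA1C, at 51.7 CPM, lay far below the vehicle's lowest, 1906 and 625 CPM. Its mitochondrial share was 3.33%, and its own group's other libraries had TUBB6 at a mean of 1.51 CPM. What sets this library apart was not tested.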

How the results depend on the processing

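Counts of called members moved most with the library that stands apart put back in the fit (57 libraries). High against vehicle they were then 1 for Menthae Herba, 3 for Polygalae Radix, 4 for Aucklandiae Radix, 1 for Guibi-tang and 0 for Saposhnikoviae Radix, Soyo-san and Saengmaek-san. High against low they were 2 for Menthae Herba, 2 for Polygalae Radix, 4 for Aucklandiae Radix, 0 for Soyo-san and Guibi-tang and 4 for Saposhnikoviae Radix, whose low dose holds that library. The direct comparisons had 5, 0 and 0, and medium and low against vehicle 0 and 4 of 70. Of 98 called member values 23 were still called in that fit, and none reversed there or under any other refit. DESeq2 gave 1 member for Saposhnikoviae Radix high against vehicle, TUBB6 having no adjusted p from it, and 2 for Saengmaek-san high against low. Without the filter on low counts the latter was 1, and with the replicate block within the set 2. Whether equal replicate numbers pair the libraries was looked at by correlation after group means were taken away. Of 17 same-numbered high and low pairs 3 were above 0.1 (median 0.052, highest 0.171), and of 18 high and vehicle pairs 5 (median 0.031, highest 0.332). Groups of 2 or 3 libraries are too small for this to decide whether libraries were paired. The replicate block changed none of the 98 calls and added 5 over all member comparisons. The sum of TUBA1A, TUBA1B and TUBA1C, nearly all of it the last 2 and so no test of TUBA1A, had the opposite sign to TUBA1A at -0.25 and -0.14 with Aucklandiae Radix (vehicle, low), 0.16 and 0.28 with Menthae Herba and 0.029 with Guibi-tang against low, and to TUBA1C at -0.14 with Aucklandiae Radix against low. Leaving out 1 library at a time gave, high against vehicle, 4 to 6 members for Menthae Herba, 6 to 8 for Polygalae Radix, 6 to 8 for Aucklandiae Radix, 0 to 1 for Soyo-san, 1 to 3 for Guibi-tang, 1 to 3 for Saengmaek-san and 0 to 2 for Saposhnikoviae Radix. High against low it gave 6 to 7, 4 to 6, 7 to 8, 0 to 1 and 1 to 3 in the first 5 of these and 0 in the last 2. The direct comparisons gave 8, 3 to 6 and 1 to 2, the medium dose 4 to 14 and the low dose 6 to 22. The Soyo-san count against vehicle was 0 without vehicle replicate 3 or either high library, and Saengmaek-san had 1 without vehicle replicate 3, high replicate 1 or high replicate 2. Saposhnikoviae Radix had 0 without vehicle replicate 1 or high replicate 2 and 1 without vehicle replicate 3 or high replicate 1. Depth limits TUBB2B and TUBB6 most, at 1.33 and 1.82 CPM in the vehicle; the smallest change detectable there was not computed.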

Other observations

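TUBB4B and TUBA1C, both abundant, held larger mean shares of their family's sum where the main isotypes fell. At the high dose of Aucklandiae Radix TUBB4B was 38.8% of the beta sum and TUBA1C 28.8% of the alpha sum, and at the high dose of Polygalae Radix they were 36.0% and 29.4%. In the vehicle they were 33.9% and 23.1%, and over the 59 libraries the medians were 34.1% and 21.7%. For TUBB4B the libraries of Polygalae Radix high were at 37.06% and 34.95%, the latter near the 34.87% of vehicle replicate 2. TUBA4A was 9.28% of the alpha sum in Aucklandiae Radix high and 5.85% in the vehicle. These shares were not tested.

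TUBA5P, an annotated tubulin pseudogene singled out after its values were seen, was at 0.452 CPM in Aucklandiae Radix high, against 4.33 CPM in the vehicle and 4.02 CPM at the low dose.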
